A study of Mus musculus with 6 samples.

Results

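The mouse genes with symbols Zfp600 to Zfp999 encode zinc finger proteins, and their mRNA was compared between mouse embryonic stem cells (mESCs, pluripotent cells grown as lines) of different Zbtb24 genotype. Members were the genes of the deposited count table whose Ensembl identifier belongs to a protein-coding gene with a symbol from Zfp600 to Zfp999. This gave 171 of the 43309 genes in the table. The numbers are running symbols, so the set is defined by name and not by expression.

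A zinc finger is a short loop of protein held by a zinc ion, and arrays of fingers read DNA sequence. Many of these proteins also carry a Krüppel-associated box (KRAB), which recruits the corepressor TRIM28 and through it the histone methyltransferase SETDB1, so that the bound chromatin is silenced. In mESCs this system is best known for silencing retrotransposons. Many of its genes lie in tandem arrays, and some arrays hold young duplicates with very similar sequence.

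All 6 libraries came from mESCs of strain J1 (129SV), grown in serum-containing medium on gelatin with no feeder layer. The control group held 3 libraries of the genotype Zbtb24 wild-type (2lox/+), and the experiment group held 3 libraries of the genotype Zbtb24 knockout (1lox/1lox). In such names 2lox is an allele with its loxP sites intact and 1lox the recombined one, so the controls keep a 2lox allele beside a wild-type allele. Poly(A) RNA was taken through the TruSeq Stranded mRNA kit from 2 µg of total RNA with 8 PCR cycles. The study describes the clones behind the lines as derived independently, and each line gave 1 library. The p-values measure the spread between these 3 and 3 clonal lines.

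Library totals ranged from 25042261 to 28838924 counts. Zbtb24 itself had 489 to 512 counts in the control libraries and 888 to 1039 in the others, a log2 fold change of 0.99 ± 0.05 (SE), which goes against the label. Gene-level counts give no view of single exons, so the experiment group is called the libraries labelled knockout. All 6 listed markers of embryonic stem cells rose (median log2 fold change 0.34), whereas Zfp42 (Rex1), a further mESC marker kept in another list here, fell by 0.77 ± 0.02. The summed level of the 6 was 3824 to 3911 CPM (counts per 1000000 of the library size, scaled by the trimmed mean of M-values, TMM) in the controls against 5286 to 5297. All 6 markers of 2-cell-like cells, a rare state of mESC cultures, fell (median -4.56, summed level 52.7 to 55.0 against 2.13 to 2.44). Of the 6 fibroblast markers 5 fell (median -2.69, 59.8 to 62.2 against 12.4 to 13.0). Of the 5 primitive endoderm markers 1 rose and 2 fell (5.40 to 6.22 against 5.17 to 6.91). No marker was at 0 in all libraries. The part of these cell states in the results below was not tested, and in bulk RNA fewer cells of a state cannot be told apart from less RNA per cell.

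Of the 171 members, 158 reached 10 counts in some library and entered the test. In the libraries labelled knockout 49 were higher and 57 lower at an adjusted p of at most 0.05 in the quasi-likelihood test of edgeR, with Benjamini-Hochberg adjustment over all genes. That is 67.1% of the members tested, where 69.5% of all 16823 genes tested were called (34.4% higher, 35.2% lower), so the share of called members lay near the background. The median log2 fold change of the members was -0.01, beside 0.00 over all genes tested. In 100 members the 3 control libraries did not overlap with the 3 libraries labelled knockout, 63.3% of those tested against 71.5% over all genes. Most changes were small: 73 of the 106 called members changed by less than 0.5 on the log2 scale, 25 by 0.5 to 1, and 8 by at least 1. Of these 8 only 1 rose (Zfp942) and 7 fell, where 5.21% of all genes tested rose and 11.8% fell by as much. The other 13 members had at most 9 counts in every library, and 5 of them had no count at all.

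The genes Zfp1 to Zfp599, named in the same way, were described for comparison. Of 194 such genes 191 were tested, 82 were higher and 45 lower, with a median log2 fold change of 0.08. Called genes made up 66.5% of those tested, beside 69.5% over all genes. No test of the difference between these sets was made.

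The members were expressed at low to moderate levels. Their median over the 6 libraries was 3.38 FPKM (fragments per kilobase, over the longest annotated transcript, scaled by library size), 134 had at least 1 and 17 at least 20. The highest mean levels belonged to Zfp990, Zfp979, Zfp980, Zfp961 and Zfp981. Per kilobase, Zfp990 stood at 90.7 ± 4.47 FPKM in the controls (SD, n = 3) and 38.8 ± 1.07 with the knockout label. Zfp979 stood at 59.6 ± 2.70 and 69.8 ± 1.13 FPKM, so the order of these genes changed between the groups. Except for Zfp961, these genes lie in a single cluster on chromosome 4.

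Clusters were defined as runs of at least 3 members with neighbours at most 1 Mb apart on mm10. This gave 17 clusters with 111 members. Of their 104 members tested, 34 were higher and 35 lower (median 0.00), and of the 54 tested outside clusters 15 were higher and 22 lower (median -0.04). The called shares were 66.3% and 68.5%, beside 69.5% of all genes tested. The clusters were not alike, and those of chromosomes 4 and 2 lay farthest from 0 (median -0.53 and 0.56).

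**Figure D1:**
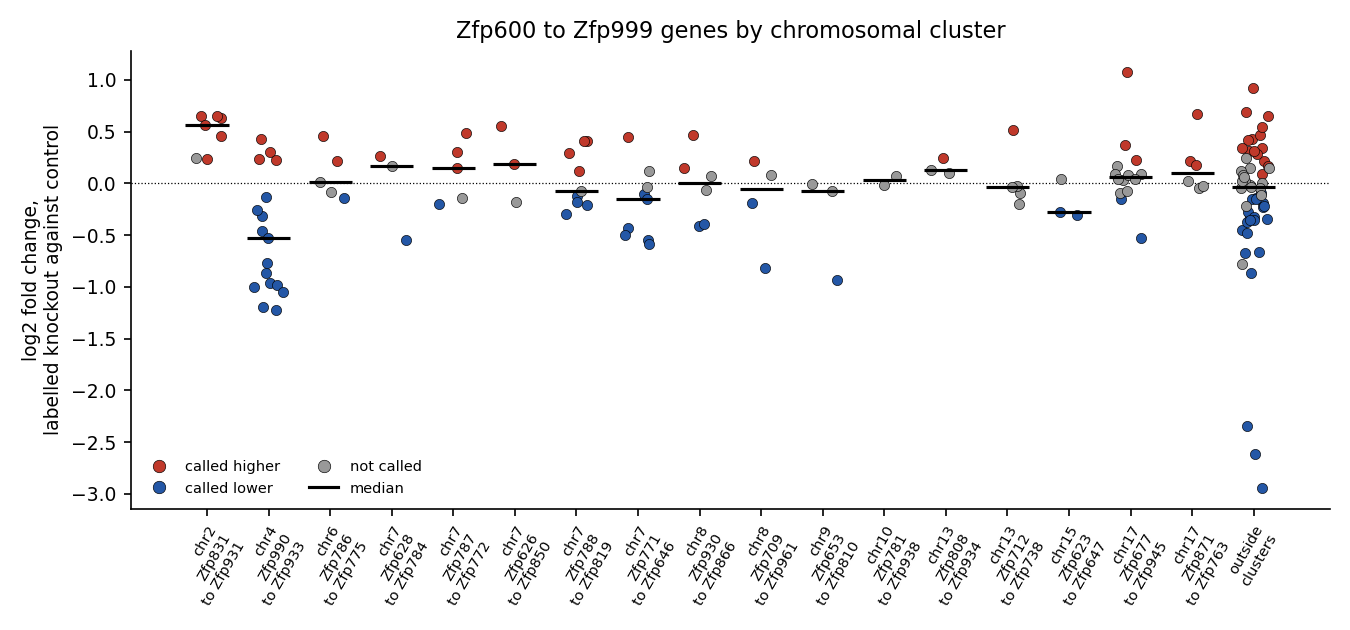
The y axis gives the log2 fold change of each tested member in the 3 libraries labelled knockout against the 3 control libraries, by chromosomal cluster on the x axis, with the members outside clusters at the right. Black bars are medians; the chromosome 4 cluster has 13 of 17 members called lower and the chromosome 2 cluster has 6 of 7 called higher.

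The chromosome 4 cluster runs from Zfp990 to Zfp933 (chr4:145510759-147848366) and holds 17 members, all of which were tested. In the libraries labelled knockout 13 were lower and 4 higher (76.5% and 23.5%), beside 35.2% and 34.4% of all genes tested. In each of the 17 the groups did not overlap, which held for 71.5% of all genes tested. Together these genes had 1432 to 1527 CPM in the controls and 928 to 963 in the libraries labelled knockout. They made up 30.6% to 31.4% of the counts of all members in the controls and 22.9% to 23.4% in the others. Outside this cluster 45 members were higher and 44 lower, 63.1% of those tested, beside 69.5% of all genes tested.

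Zfp990 had 292, 268 and 268 CPM in the controls against 114, 120.0 and 120.0 with the knockout label. Every library labelled knockout was below every control library. The log2 fold change was -1.23 ± 0.03 (SE; adjusted p = 3.97e-36, quasi-likelihood test of edgeR, Benjamini-Hochberg adjustment). Zfp981 was at 199.7, 176 and 188 in the controls and at 81.6, 83.8 and 80.9 in the others, and fell by 1.20 ± 0.03 on the log2 scale. For Zfp980 the values were 290.4, 272 and 279 against 143, 149.8 and 139, a log2 fold change of -0.96 ± 0.03. The control libraries of these 3 abundant genes lay close together. All 3 were among the largest falls, and the rule for naming those required no overlap between groups. Over all genes tested 71.5% showed no overlap.

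Zfp978 had 53.1, 45.9 and 48.4 CPM in the controls and 24.5, 25.7 and 23.4 in the libraries labelled knockout (log2 fold change -1.005 ± 0.05). Zfp982 had 25.02, 25.3 and 22.8 against 12.6, 11.5 and 12.9 (-0.98 ± 0.06). Both were lower in each library labelled knockout. Zfp600 had 83.6, 80.4 and 83.1 against 44.6, 47.9 and 43.1 (-0.87 ± 0.04), and Zfp985 had 95.0, 91.3 and 89.3 against 50.5, 54.8 and 56.5 (-0.77 ± 0.04). Zfp993, at 4.55, 4.33 and 4.99 against 3.25, 1.42 and 1.98, had the fewest counts of the cluster and was the member whose libraries labelled knockout differed most among themselves (-1.05 ± 0.15). The other members that fell were Zfp992 (-0.53 ± 0.04), Zfp991 (-0.46 ± 0.07), Zfp984 (-0.32 ± 0.04), Zfp986 (-0.26 ± 0.06) and Zfp987 (-0.13 ± 0.05).

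The 4 members that rose lay in the distal part of the cluster. Zfp979 had 163, 151 and 149.7 CPM in the controls against 179, 180.1 and 185, and rose by 0.23 ± 0.03 on the log2 scale (adjusted p = 7.78e-10, quasi-likelihood test of edgeR, Benjamini-Hochberg adjustment). Zfp989 rose from 17.0, 16.6 and 15.2 to 20.7, 22.0 and 23.2 (0.43 ± 0.06). Zfp988 (0.23 ± 0.04) and Zfp933 (0.30 ± 0.08) rose as well. They did not form a block of their own, because members that fell (Zfp991, Zfp978, Zfp982, Zfp985 and Zfp984) lay between them.

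**Figure D2:**
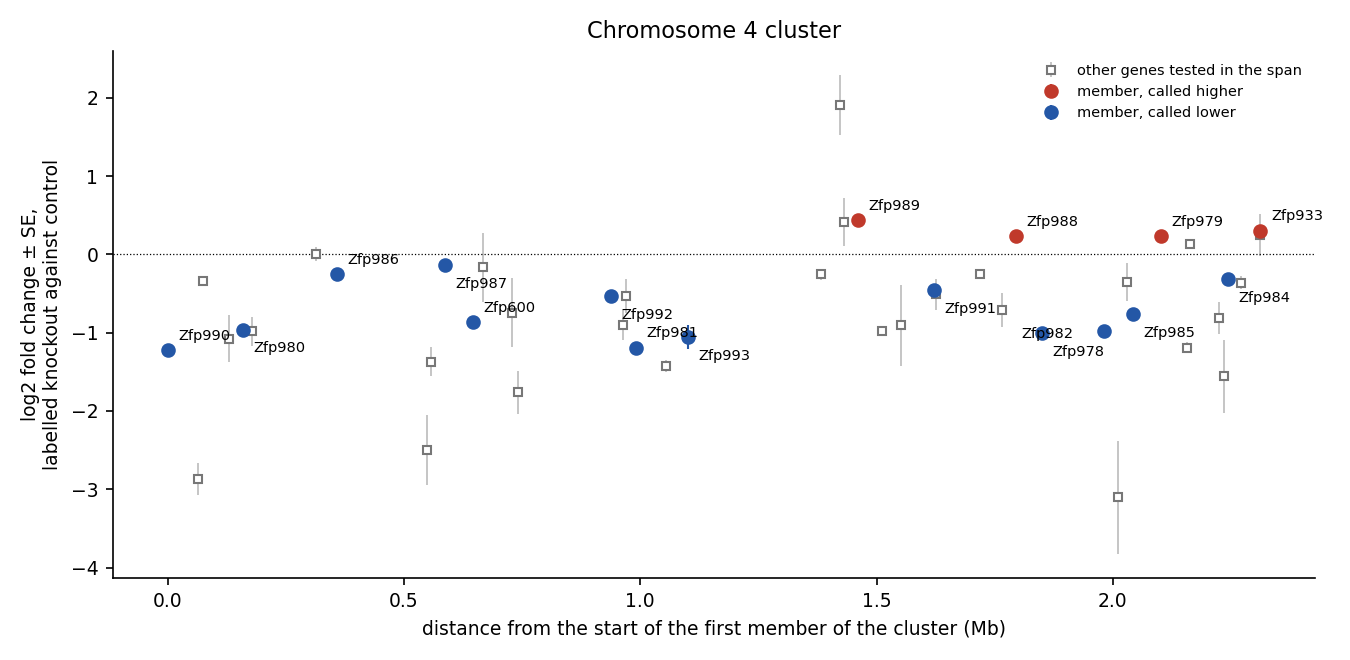
The x axis is the distance in Mb from the start of the first member of the chromosome 4 cluster, and the y axis the log2 fold change with its SE, in the 3 libraries labelled knockout against the 3 controls. Filled circles are the 17 members and open squares the 29 other genes tested in the span; 13 members lie below 0 and 4 above it, all 4 in the right part of the map.

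The genes between the members went largely the same way. Of 29 other genes tested inside the span 20 were lower and 2 higher, with a median log2 fold change of -0.75. Among them Rex2, a zinc finger gene of the same array, had 2966 to 3180 counts in the control libraries and 1433 to 1503 in the others (-0.98). Of the processed pseudogenes in the span, Gm13228 fell from 88 to 96 counts to 7 to 16 (-2.87), the steepest fall, and Gm20760, the 1 processed pseudogene called higher, rose from 3 to 7 counts to 17 to 21 (1.91). Zfp534, a zinc finger gene inside the span with a lower number, rose by 0.14. In the 2 Mb on each side of the cluster 61 genes were tested, of which 35 were lower and 11 higher (median -0.30). Lower genes made up 69.0% of the other genes of the span and 57.4% of the flanking genes, beside 35.2% of all genes tested. Over chromosome 4 as a whole the median of 1111 genes tested was -0.02. The 6 markers of 2-cell-like cells fell in the same libraries, and their part in the fall of this cluster was not tested.

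The RefSeq windows (GRCm38.p6) of the 250 bases upstream of the annotated start show how alike some genes of this array are. A window was found for 139 of the 171 members. In this cluster Zfp990, Zfp992, Zfp991, Zfp986, Zfp993, Zfp978 and Zfp989 had none. In the chromosome 4 cluster 40 pairs of windows could be aligned over at least 150 positions, and the median identity of a pair was 85.0% (52.2% to 98.4%). The pairs with fewer positions all involved Zfp933 and were 58.6% to 62.5% identical. The windows below belong to Zfp979, which rose, and to 3 members that fell, and are shown because the most similar pair of the cluster changed in opposite directions. Capitals mark bases that differ from the Zfp979 window, or are inserted relative to it, in the aligned stretch. The windows lie at chr4:147642509-147642758 (minus strand), chr4:146156577-146156826 (plus strand), chr4:145670447-145670696 (plus strand) and chr4:147492167-147492416 (plus strand).
Zfp979: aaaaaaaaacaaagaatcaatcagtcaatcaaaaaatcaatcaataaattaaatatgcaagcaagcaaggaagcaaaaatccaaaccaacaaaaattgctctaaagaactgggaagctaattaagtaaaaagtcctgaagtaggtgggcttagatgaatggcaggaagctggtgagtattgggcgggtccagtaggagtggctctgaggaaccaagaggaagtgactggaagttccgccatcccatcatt
Zfp600: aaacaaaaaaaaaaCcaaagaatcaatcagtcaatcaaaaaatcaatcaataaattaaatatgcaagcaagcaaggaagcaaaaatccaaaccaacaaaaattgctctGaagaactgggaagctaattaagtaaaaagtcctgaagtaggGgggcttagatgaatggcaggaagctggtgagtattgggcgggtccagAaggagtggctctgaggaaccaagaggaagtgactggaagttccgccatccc
Zfp980: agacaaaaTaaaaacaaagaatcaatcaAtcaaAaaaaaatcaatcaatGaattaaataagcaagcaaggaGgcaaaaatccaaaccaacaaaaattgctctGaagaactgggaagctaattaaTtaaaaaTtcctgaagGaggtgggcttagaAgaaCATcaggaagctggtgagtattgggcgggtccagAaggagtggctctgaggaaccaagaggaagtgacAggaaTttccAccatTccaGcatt
Zfp982: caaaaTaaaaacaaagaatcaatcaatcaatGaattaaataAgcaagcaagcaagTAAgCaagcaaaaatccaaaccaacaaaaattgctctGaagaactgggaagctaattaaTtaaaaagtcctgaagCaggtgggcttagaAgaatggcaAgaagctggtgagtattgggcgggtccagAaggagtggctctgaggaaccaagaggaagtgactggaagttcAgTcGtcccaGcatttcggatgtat

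The Zfp600 window was identical to that of Zfp979 at 98.4% of 244 aligned positions, with 4 substitutions and no gap. Zfp600 fell (-0.87 ± 0.04) in the libraries in which Zfp979 rose (0.23 ± 0.03). The counts of Zfp600 are uncertain, because it shares most of its sequence with Rex2 (-0.98), as described below. The windows of Zfp980 and Zfp982 were 90.4% and 87.0% identical to it. With the 50 bases after the start included, the dinucleotide CG occurred 5 times in Zfp979, 5 times in Zfp600, 3 times in Zfp980 and 5 times in Zfp982. The median was 11 over the windows of the members and 7 over all 32851 windows of the table.

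Such similarity also bears on the counts, because fragments that mapped to multiple locations had been discarded. Transcripts of each gene were cut into all stretches of 76 bases, the read length, and the share found in no other annotated gene was taken as its unique share. The median over the members was 99.4%, and 124 members had at least 90%. In the chromosome 4 cluster, however, 9 of 17 members had less than 50%. Among the 6 members of the cluster with at least 75%, 4 fell: Zfp990 (92.1% unique), Zfp985 (95.5%), Zfp982 (95.4%) and Zfp981 (77.6%). The other 2, Zfp979 (80.3%) and Zfp933 (99.95%), rose. The counts of the 9 members with less than 50% are uncertain, since the discarded fragments cannot be assigned to one copy or another. Of these 9, 7 fell: Zfp600 (23.8% unique, with 68.0% of its stretches also in Rex2), Zfp980 (43.4%, with 46.2% in Rex2), Zfp978 (36.9%), Zfp986 (23.0%), Zfp993 (21.6%), Zfp991 (20.3%) and Zfp987 (12.9%). The other 2, Zfp989 (41.0%) and Zfp988 (40.8%), rose. The search covered transcripts annotated in GENCODE M21 only and not the rest of the genome, while the counts were made on GENCODE M4.

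**Figure D3:**
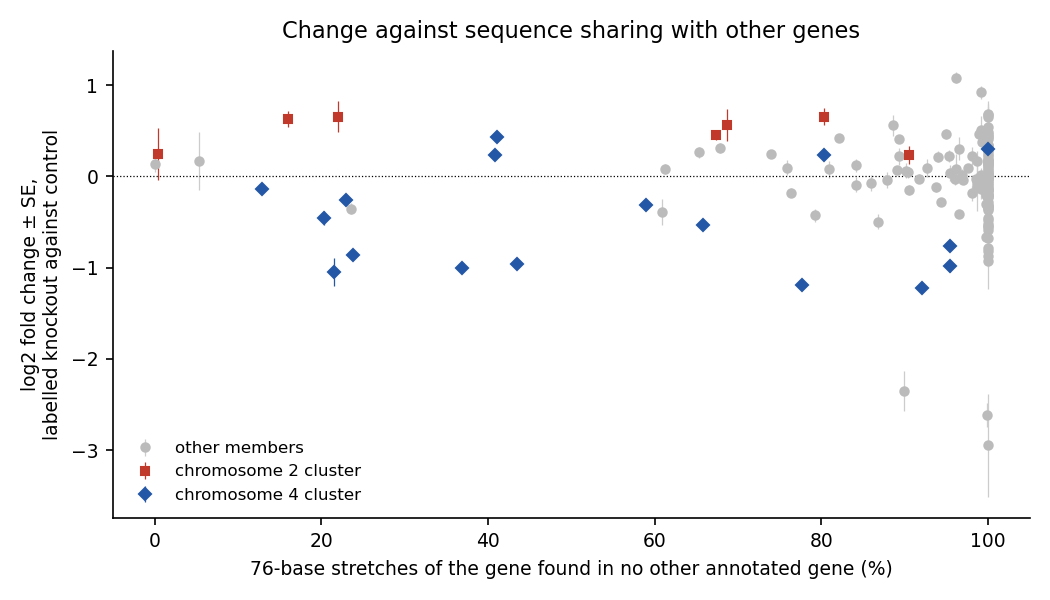
The x axis is the percentage of 76-base stretches of a member found in no other annotated gene, and the y axis its log2 fold change with SE in the 3 libraries labelled knockout against the 3 controls. Blue diamonds are the chromosome 4 cluster, red squares the chromosome 2 cluster and grey circles the other members; diamonds below 0 are found at both low and high percentages.

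The chromosome 2 cluster (Zfp831 to Zfp931, chr2:174643534-178078476) moved the other way. Of its 11 members 7 were tested, and 6 of these were higher and none lower in the libraries labelled knockout. That is 85.7% called, beside 69.5% of all genes tested. The 4 that were not tested were Zfp831, Zfp965, Zfp967 and Zfp969, and every stretch of the last 3 also occurs in other genes. The summed level of the cluster was 36.5 to 38.0 CPM in the controls and 51.6 to 54.4 in the libraries labelled knockout.

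Zfp970 was the most abundant, with 16.6, 17.3 and 17.0 CPM in the controls against 22.9, 23.2 and 23.6 with the knockout label. It rose by 0.46 ± 0.05 (adjusted p = 1.89e-10, quasi-likelihood test of edgeR, Benjamini-Hochberg adjustment). Zfp971 had 5.15, 5.10 and 5.21 against 8.16, 8.61 and 7.62, a log2 fold change of 0.65 ± 0.09, and is 80.3% unique. Zfp966 had 7.53, 6.51 and 6.19 against 10.7, 11.5 and 9.25 (0.63 ± 0.09) but is 16.1% unique. In these 3 genes each library labelled knockout lay above each control library, which the rule that named Zfp971 and Zfp966 required. Zfp973 had 1.31, 2.18 and 1.38 against 2.30, 2.80 and 2.59 (0.65 ± 0.17, 22.0% unique), with 1 control library close to the other group. Zfp972 had 1.28, 1.31 and 1.49 against 1.84, 2.07 and 2.13 (0.56 ± 0.17). Zfp931 had the smallest rise (0.23 ± 0.10), and its call was lost when any library other than experiment replicate 2 was left out (adjusted p from 0.051 to 0.16, quasi-likelihood test of edgeR, Benjamini-Hochberg adjustment). The call was also lost with DESeq2, with library totals alone and when a mean of at least 50 counts was required. Zfp968 was not called (0.24 ± 0.28).

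**Figure D4:**
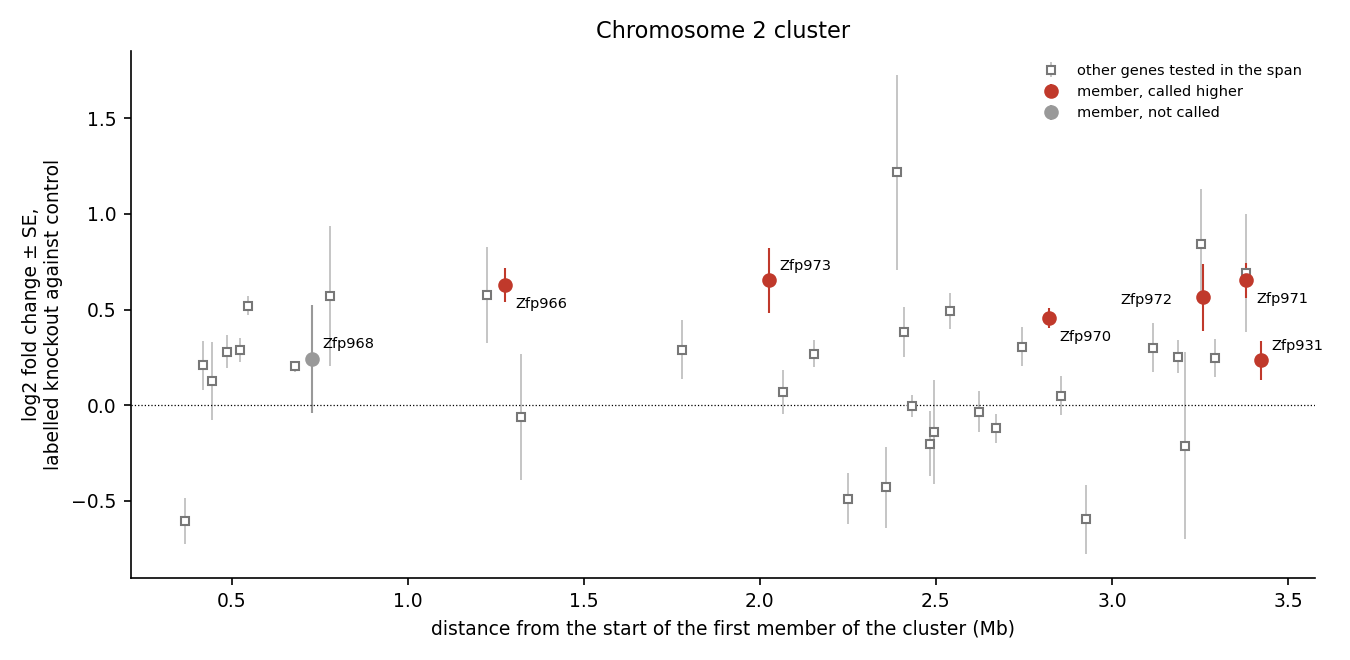
The x axis is the distance in Mb from the start of the first member of the chromosome 2 cluster, and the y axis the log2 fold change with its SE, in the 3 libraries labelled knockout against the 3 controls. Filled circles are the 7 members tested and open squares 32 other genes tested in the span; every filled circle lies above 0, while the squares lie on both sides.

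Other genes of this span were less uniform: of 32 tested 15 were higher and 3 lower (median 0.23). They carry no Zfp symbol, and include Gm14391 (0.52) and Gm14410 (0.49), which rose, and Gm14296 (-0.49), which fell. In the 2 Mb on each side 34 genes were tested, with 9 higher and 11 lower (median -0.06). Called genes made up 56.25% of these other genes and 58.8% of the flanking genes, beside 69.5% of all genes tested.

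Upstream windows of this cluster were closer to each other than those of chromosome 4, with a median identity of 97.5% over 36 pairs (79.4% to 100%). They are shown for the most abundant member and 2 others that rose. Capitals mark bases that differ from the Zfp970 window in the aligned stretch. The windows lie at chr2:177464492-177464741 (plus strand), chr2:175931101-175931350 (minus strand) and chr2:178023034-178023283 (plus strand).
Zfp970: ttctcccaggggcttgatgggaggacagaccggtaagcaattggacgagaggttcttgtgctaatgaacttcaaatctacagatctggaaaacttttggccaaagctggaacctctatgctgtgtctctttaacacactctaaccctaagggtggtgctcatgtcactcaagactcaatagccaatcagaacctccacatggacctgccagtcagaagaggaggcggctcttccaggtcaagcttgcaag
Zfp966: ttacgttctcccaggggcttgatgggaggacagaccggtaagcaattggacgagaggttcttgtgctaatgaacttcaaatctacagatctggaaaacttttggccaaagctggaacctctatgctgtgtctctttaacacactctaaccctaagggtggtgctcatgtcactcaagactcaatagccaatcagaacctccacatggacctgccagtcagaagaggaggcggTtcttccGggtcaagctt
Zfp971: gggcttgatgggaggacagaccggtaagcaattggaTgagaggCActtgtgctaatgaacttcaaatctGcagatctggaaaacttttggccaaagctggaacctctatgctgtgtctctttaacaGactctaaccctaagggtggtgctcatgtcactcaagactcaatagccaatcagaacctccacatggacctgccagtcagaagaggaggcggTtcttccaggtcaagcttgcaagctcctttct

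The Zfp966 window differed from that of Zfp970 by 2 substitutions over 245 aligned positions (99.2% identical), and that of Zfp971 by 6 over 241 (97.5%). The change of their genes was 0.46 for Zfp970, 0.63 for Zfp966 and 0.65 for Zfp971 on the log2 scale. The known ZBTB24 recognition sequence is CAGGACCT, and this or its reverse complement AGGTCCTG was found in the windows of 4 of 139 members (2.88%): Zfp606, Zfp981, Zfp947 and Zfp820. Over all 32851 windows 1.99% held it. Of these 4 members Zfp981 fell (-1.20), Zfp606 rose (0.32), and Zfp947 (0.09) and Zfp820 (-0.09) were not called.

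In the remaining clusters members of one array mostly differed among themselves. The large cluster on chromosome 17 from Zfp677 to Zfp945 held 14 members, of which 3 were higher, 2 lower and 9 not called. That is 35.7% called, beside 69.5% of all genes tested. Zfp942, a KRAB gene, had the largest rise of all members. Its levels were 9.74, 9.75 and 9.25 CPM in the controls and 20.6, 20.3 and 19.9 in the libraries labelled knockout, with a log2 fold change of 1.08 ± 0.06 (adjusted p = 9.18e-21, quasi-likelihood test of edgeR, Benjamini-Hochberg adjustment). The groups were far apart and the libraries of each group close together. Its neighbours Zfp943 (0.37 ± 0.09) and Zfp944 (0.22 ± 0.06) rose by less, Zfp945, with the most counts of the cluster, fell by 0.16 ± 0.04, and Zfp677 fell by 0.52 ± 0.18. In the other chromosome 17 cluster Zfp811 rose from 3.13, 2.51 and 2.55 to 4.06, 4.51 and 4.46 (0.67 ± 0.12), while the member with the most counts, Zfp871, was not called (-0.02 ± 0.04).

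Chromosome 7 held 35 members, all tested, of which 14 were higher and 13 lower, in 5 clusters and outside them. That is 77.1% called, beside 69.5% of all genes tested (34.4% higher, 35.2% lower). In the cluster from Zfp771 to Zfp646 6 of 9 members were lower and 1 higher (66.7% and 11.1%). Zfp771 had 8.32, 11.3 and 13.0 CPM in the controls and 8.00, 7.39 and 6.31 in the others, with a wide spread among the controls (-0.59 ± 0.10). Zfp646, the most abundant there, fell by 0.11 ± 0.03, and Zfp688 rose (0.44 ± 0.08). In the cluster from Zfp788 to Zfp819 4 members were higher and 4 lower (88.9% called). Zfp976 had 26.1, 25.6 and 27.8 against 34.0, 35.9 and 35.7 (0.41 ± 0.05). Zfp975, with which it shares 9.39% of its stretches, fell by 0.18 ± 0.05. In the small clusters Zfp628 fell (-0.55 ± 0.08) and Zfp865 rose (0.26 ± 0.06), Zfp787 (0.49 ± 0.11) and Zfp667 (0.15 ± 0.07, a call lost under 10 alternatives) rose, and Zfp974 (0.56 ± 0.12) and Zfp850 (0.19 ± 0.04) rose.

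Zfp961 on chromosome 8, among the most abundant members, had 151, 158 and 155 CPM in the controls and 83.3, 89.0 and 89.4 in the libraries labelled knockout. It fell by 0.82 ± 0.03 with all of its stretches unique (adjusted p = 1.11e-28, quasi-likelihood test of edgeR, Benjamini-Hochberg adjustment). The median of all 869 genes tested on chromosome 8 was -0.23. In the cluster from Zfp930 to Zfp866 2 members were higher, with the largest change in Zfp869 (0.46 ± 0.05), and 2 lower, while the one with the most counts, Zfp866, was not called (0.07 ± 0.04). Called members made up 66.7% of this cluster, beside 69.5% of all genes tested. On chromosome 13 only Zfp808 (0.25 ± 0.04) and Zfp712 (0.51 ± 0.15) of 9 members tested were called, both higher, and Zfp748 was not (-0.02 ± 0.05). The called share on chromosome 13 was thus 22.2%. On chromosome 6 Zfp786 rose (0.46 ± 0.14) and Zfp777 was not called (-0.09 ± 0.05). On chromosome 15 Zfp647 fell (-0.31 ± 0.09) and Zfp623 was not called (0.04 ± 0.06). Neither tested member of the chromosome 10 cluster was called.

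Of those among the 16 members listed for a known role that are linked to silencing retroviral sequence, Zfp809 changed most. Zfp809 recognises the primer binding site of murine leukaemia viruses and silences them through TRIM28. It had 29.8, 27.4 and 28.2 CPM in the controls and 14.2, 13.9 and 16.5 in the libraries labelled knockout, and every library labelled knockout was below every control. The log2 fold change was -0.93 ± 0.06 (adjusted p = 8.55e-20, quasi-likelihood test of edgeR, Benjamini-Hochberg adjustment). Zfp819, a KRAB gene linked to silencing of endogenous retroviruses, fell by 0.21 ± 0.06, and Zfp932, another such gene, rose by 0.31 ± 0.05. Zfp708, also a KRAB gene, was listed at 0 in 5 libraries and at 1 count in the sixth. All of its stretches also occur in the gene model Gm28557, so that its level cannot be read from these counts.

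Zfp608 and Zfp703, which lie outside clusters and are not classical finger arrays, fell steeply. Zfp608 had 7.61, 7.42 and 8.01 CPM in the controls and 1.07, 1.26 and 1.42 in the libraries labelled knockout, and its log2 fold change was -2.61 ± 0.13 (adjusted p = 2.13e-23, quasi-likelihood test of edgeR, Benjamini-Hochberg adjustment). Its paralog Zfp609, a partner of the cohesin loader NIPBL, had 98.5, 94.2 and 96.0 against 97.3, 98.1 and 95.1 and was not called (0.01 ± 0.03). Zfp703, a corepressor of the NET family, had 66, 70 and 69 counts in the controls and 15, 7 and 16 in the others (-2.35 ± 0.22). In both genes that fell the groups were widely separated, and in Zfp609 they overlapped. Zfp853, chosen after its values were seen because it completes the 7 large falls, had 11, 19 and 13 counts against 1, 1 and 3, too few for a fold change to be read.

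Several members outside clusters rose. Zfp827, which binds nucleosome remodelling complexes at telomeres, had 8.99, 10.2 and 11.1 CPM against 18.5, 20.03 and 18.7 (0.92 ± 0.07). Zfp711, an X-linked gene whose protein recruits the histone demethylase PHF8, had 1.71, 1.56 and 1.24 against 2.76, 2.07 and 2.27 (0.65 ± 0.17). Zfp637 had 7.93, 8.44 and 8.71 against 14.0, 13.7 and 12.7 (0.69 ± 0.07). The groups did not overlap in these 3, but the rule that named them as largest rises required this.

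Other members with known roles changed little. Zfp706, which has been linked to the exit of mESCs from self-renewal, was abundant and fell by 0.28 ± 0.03. Zfp644, a partner of the histone methyltransferases G9a and GLP, fell by 0.32 ± 0.03, with 77.5 to 78.5 CPM in the controls and 62.1 to 62.5 in the others. Zfp687 fell by 0.15 ± 0.04. Zfp746, a substrate of the ubiquitin ligase parkin, was called lower by 0.14 ± 0.06 although its groups overlapped, and this call did not hold under 6 alternatives. Zfp618, a partner of UHRF2, was not called (0.24 ± 0.11). Zfp638 (0.01 ± 0.03), an RNA- and DNA-binding protein, and Zfp830 (0.02 ± 0.04) were not called either.

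**Figure D5:**
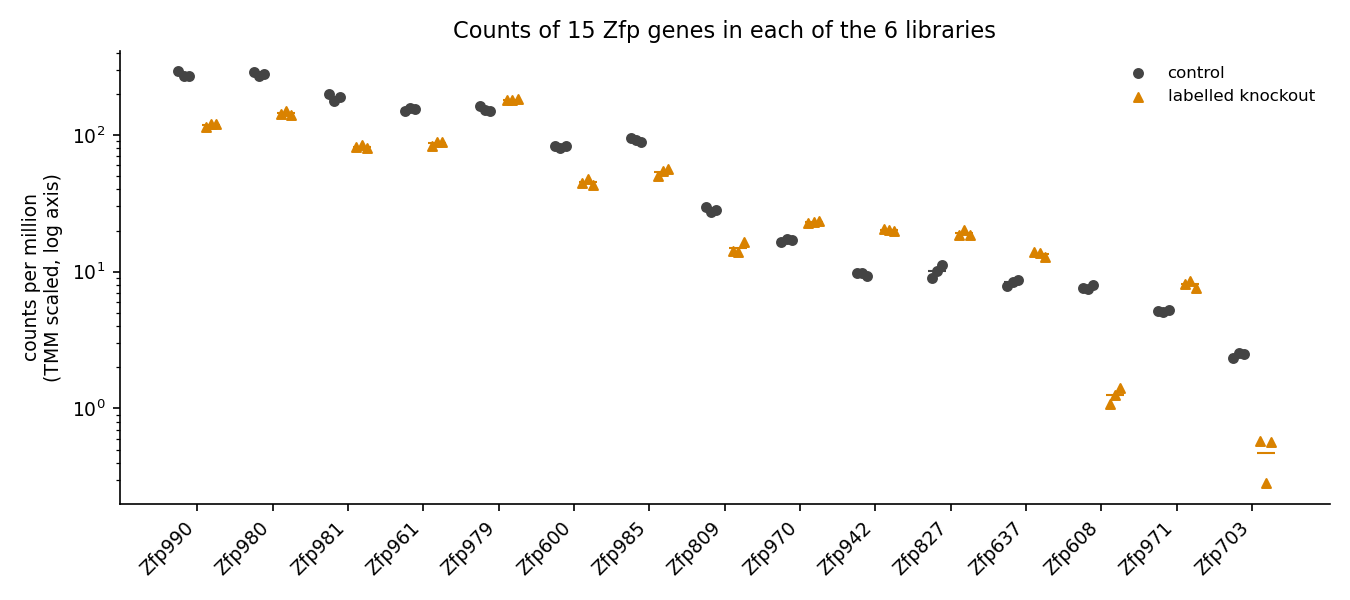
The y axis (logarithmic) gives CPM and the x axis 15 members, for each of the 3 control libraries (grey circles) and the 3 libraries labelled knockout (orange triangles), with short lines for the means. The groups do not overlap in any of the 15 genes. For those named as largest rises or falls the naming rule required this, and 71.5% of all genes tested showed no overlap. Zfp979, Zfp970, Zfp942, Zfp827, Zfp637 and Zfp971 lie higher and the other 9 lower in the libraries labelled knockout.

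The members also differed in protein domains. A KRAB box, found by a fixed residue pattern in the translated coding sequence, was present in 75 members, of which 71 were tested and 19 were higher and 28 lower (median log2 fold change -0.07). Without the box 87 were tested, 30 higher and 29 lower (median 0.02). Called members made up 66.2% with the box and 67.8% without it, beside 69.5% of all genes tested. The strict pattern misses genes known to have the box, such as Zfp819 and Zfp932, and a looser pattern found 93 members, with 26 higher and 33 lower of 88 tested. Of the 71 tested with the strict pattern 16 lie in the chromosome 4 cluster. The median number of C2H2 fingers per member was 11 and the largest 33, in Zfp619, and 10 members had no match to the finger pattern.

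Genes of the corepressor pathway through which KRAB proteins act were measured as well, in a list that also holds the zinc finger genes Zfp42 and Zfp57. Of the 17 genes of this list 4 were higher and 8 lower (median log2 fold change -0.05). That is 70.6% called, near the 69.5% of all genes tested. Trim28, the corepressor itself, was not called (0.01 ± 0.02), with 61015 to 67388 counts in the 6 libraries. Setdb1, the methyltransferase, fell by 0.14 ± 0.03. Apart from Zfp42 and Zfp57, Daxx changed most (-0.38 ± 0.03). The largest changes of the list were those of the zinc finger genes Zfp42 (also known as Rex1, a marker of mESCs), which fell by 0.77 ± 0.02, and Zfp57, which protects imprinted methylation and rose by 0.58 ± 0.02.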

How the data were processed

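Poly(A) RNA of 6 mESC lines was measured. Per the labels and the study's methods, the authors used CASAVA 1.8.2, removed rRNA reads with Bowtie2 2.1.0, mapped the rest to mm10 with TopHat2 2.0.10 and counted fragments per GENCODE M4 gene with HTSeq 0.6.1 (union mode, sense strand), discarding fragments at multiple locations or in multiple genes. The deposited values are raw counts. Genes with near-identical copies may therefore be under-counted.

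Symbols, positions and transcripts came from GENCODE M21 on the same build by Ensembl identifier (42425 of 43309 matched). Genes with at least 10 counts in 1 library were tested in R 4.3.3 with edgeR 4.0.16 (TMM, quasi-likelihood, Benjamini-Hochberg over all 16823 genes, FDR at most 0.05), after the fit was tested on simulated data. The groups were compared with no covariate. Positive log2 fold changes mean higher in the libraries labelled knockout, and their SE is the size divided by the square root of F. Total counts of 25042261 to 28838924 per library limit precision only for low genes. Reads carried no molecular identifiers.

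KRAB boxes and C2H2 fingers were searched in coding sequences of GENCODE M21 translated here, in place of a protein table. Upstream windows, within 20 kb of the annotated start, came from RefSeq (GRCm38.p6) and were aligned with Biopython 1.88. Columns of other samples numbered 0.

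The members, gene lists and tests were chosen with earlier results of these data known. Genes named were the 8 largest rises and 8 largest falls among members called with a mean of at least 50 counts and no overlap between groups, the 5 highest FPKM, the member with the highest counts and the most changed member of each cluster, and 16 with a known role. Exceptions named after their values were seen are the other members of the chromosome 4, 2, 7 and 17 clusters given with values, Zfp853, the members holding the searched sequence, and the non-member genes of the spans. Alternatives were other tests (DESeq2 1.42.0 among them), scalings, filters, thresholds and cluster gaps, a replicate block and each library left out.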

Additional observations from a re-analysis of the deposited data

How the results depend on the processing

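Across the alternative tests, scalings, filters and cluster gaps, 91 of 93 counts stayed within 1.5 times the value given. Most are counts of called members, and a few are counts of clusters or of members in clusters under other gaps. The 2 exceptions come from the stricter rule itself: when a log2 change of 1 or more in size was required, 1 member was higher and 7 were lower. Leaving out each library in turn gave 41 to 47 members higher and 49 to 56 lower, 12 to 13 lower and 4 to 4 higher in the chromosome 4 cluster, 5 to 6 higher in the chromosome 2 cluster, and a log2 fold change of Zbtb24 of 0.96 to 1.03. The member of chromosome 4 that lost its call was Zfp987, without control replicate 1 and without experiment replicate 1. With library totals alone 39 were higher and 63 lower, and the median of all genes tested was -0.05. DESeq2 called 40 higher and 46 lower. Of 636 values of 53 named genes under the alternatives, 0 reversed, 16 lost a call (Zfp667 and Zfp746) and 3 gained it (Zfp777 and Zfp618). The replicate numbers do not pair the libraries (correlations of same-numbered deviations 0.01, 0.04 and 0.02), and with the replicate block 49 members were higher and 58 lower, with Zbtb24 at 0.99. Depth limits the 13 members that were not tested. Sequence shared with other annotated genes, whether copies or overlapping gene models, bears on the 20 with less than 50% unique stretches. A low share need not mean lost counts: Zfp935 has 99.2% of its stretches in Gm49359 and had 172 to 218 counts per library. Among the members with at least 50% unique stretches 45 were higher and 49 lower.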

Other observations

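The table also holds 3 genes of this number range that are annotated as pseudogenes and were not members. Zfp783 had 76, 90 and 84 counts in the control libraries and 42, 64 and 55 in those labelled knockout, and fell by 0.56 ± 0.15 on the log2 scale. Zfp640 had 347, 300 and 285 against 328, 380 and 367 and rose by 0.28 ± 0.07. In both the groups did not overlap on the CPM scale. Zfp939 was not called (0.05 ± 0.15).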
